A study of Xenopus laevis with 6 samples.

Results

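Neurotransmitter receptors are the membrane proteins through which nerve cells and their targets sense glutamate, GABA, acetylcholine, serotonin and dopamine. The genes described here are those of the Affymetrix *Xenopus laevis* genome array whose annotated symbol begins with the stem of a receptor family (*gria*, *grin1*, *grin2*, *grin3*, *grik*, *grm* with a digit, *gabr*, *gabbr*, *glra*, *glrb*, *chrn*, *chrm*, *htr* with a digit, *drd*, *adra*, *adrb*, *oprd*, *oprk* or *oprm*). This gave 24 genes, read by 29 probe sets, of 11303 genes that had a probe set with a single gene symbol. *X. laevis* carries an L and an S copy of many genes, and each copy was counted as a gene of its own and represented by its probe set of highest mean. The 24 genes were 5 ionotropic glutamate receptor genes, 3 GABA receptor genes, 9 nicotinic acetylcholine receptor genes, 5 serotonin receptor genes and 2 dopamine receptor genes. No probe set with a single symbol matched the stems of the metabotropic glutamate, glycine, muscarinic, adrenergic or opioid receptors, and those 5 families were not analysed here.

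RNA came from the dissected preoptic area, hypothalamus and pituitary of Nieuwkoop-Faber (NF) stage 54 tadpoles. Recombinant *Xenopus* leptin (rxLeptin, 20 ng/g body weight) in 1 group and 0.6% saline in the other were injected into the cerebral ventricle (i.c.v.), and tissue was taken 2 h later. Leptin is a hormone of fat tissue that acts on hypothalamic neurons. There were 3 pools of 3 brains each in either group, and each pool was read on 1 array, so that the comparison asks which transcripts differed shortly after 1 dose of the hormone. All values are log2 signals after Robust Multichip Average (RMA) processing, on which a difference of 1 is a doubling, and levels are compared only between arrays for the same probe set.

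As background, ionotropic glutamate receptors and nicotinic receptors are cation channels that excite the cell, and the ionotropic GABA receptor is an anion channel that inhibits it in most mature neurons. The metabotropic GABA receptor, the dopamine receptors and most serotonin receptors act through G proteins. In the vertebrate hypothalamus, GABA and glutamate are the main fast transmitters of the circuits that control feeding and pituitary secretion, and dopamine acting on D2-type receptors restrains secretion from several types of pituitary cell.

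Markers of the dissected tissue were read on each array. The neuronal transcripts *stmn2.L*, *tubb3.L* and *snap25.L* had log2 levels of 13.83 to 14.01, 14.10 to 14.19 and 13.65 to 13.72 on rxLeptin arrays, against 13.97 to 14.04, 13.99 to 14.07 and 13.60 to 13.72 on saline arrays. The hypothalamic *nkx2-1.L* had 9.76 to 10.02 on rxLeptin arrays and 10.003 to 10.36 on saline arrays, and the pituitary hormone gene *pomc.L* had 13.14 to 13.73 and 13.52 to 13.80. Other genes of the same marker lists, such as *syt1.L*, *rax.L* and *pitx1.L*, read much lower. Readings of different probe sets are not taken here as relative amounts of transcript, so these values do not measure how much of each tissue was present. The 13 preoptic and hypothalamic marker genes measured had a summed level of 12.93 to 12.999 in log2 on rxLeptin arrays, below the 13.04 to 13.15 on saline arrays. Probe sets of high signal weigh most in this linear sum. The highest, *lhx9.S*, read 11.76 to 11.82 on rxLeptin arrays and 11.83 to 11.89 on saline arrays. Of the 13 genes, 3 were tested and 1 fell, *hmx2.S*, by 0.39 (adjusted *p* = 0.0116 in limma, groups overlapping), while 23.3% of all tested genes fell. The part of these markers in the receptor values was not tested. Arrays were alike in their median, at 7.31 to 7.35, but 1 quality measure separated the groups. Control probe sets for actin read 0.60 to 0.67 higher near the 3′ end than in the middle of the transcript on rxLeptin arrays, against 2.83, 1.61 and 0.77 higher on saline arrays 1, 2 and 3. A larger gap means that less signal came from the upstream part of the transcript. The actin gap differed most from the rxLeptin arrays on saline array 1 and least on saline array 3. The gaps between 3′ and 5′ probe sets of gapdh and ef1a overlapped between groups. For gapdh they were 0.93 to 1.11 on rxLeptin arrays, against 2.71, 1.18 and 1.02 on saline arrays 1, 2 and 3. For ef1a they were 2.83 to 3.24, against 4.47, 3.72 and 3.05. Receptor fold changes fitted with the actin gap as a covariate are given beside the results. The actin gap separated the groups, so that fit cannot fully tell it apart from treatment.

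Each group was compared with limma, a linear model with moderated variances fitted across all probe sets, with array weights as in the study's methods. The study removed probe sets of low variance and also those at background level. The fit here used a variance filter alone. Only probe sets whose interquartile range over the 6 arrays exceeded the median of 0.173 were tested, and a gene was called at an adjusted *p* (Benjamini-Hochberg over 16269 probe sets) under 0.05. Of the 24 receptor genes, 12 passed this filter, as did 47.5% of all genes. Of these 12, 5 rose, 0 fell and 7 were not called. Called in either direction were thus 41.7% of the tested receptor genes, near the 46.3% of all tested genes, so the number of calls set the receptors apart in no way. In that background 23.1% rose and 23.3% fell. Over all 24 genes, the rxLeptin arrays were all above the saline arrays in 6 (25%, against 11.1% of all genes) and all below in 1 (4.17%, against 16.6% of all genes), and the groups overlapped in 17. The groups were thus apart in 29.2% of the receptor genes and in 27.7% of all genes. The median fitted log2 fold change was 0.15 over the 12 tested receptor genes and -0.046 over all tested genes, and the median difference between group means was 0.036 over all 24 and -0.033 over all genes.

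The calls depended on the model. The array weights were 1.2, 4.27 and 0.60 for rxLeptin arrays 1, 2 and 3, and 0.30, 3.96 and 0.27 for saline arrays 1, 2 and 3, so that 1 array dominated each group in this fit. Their estimation gave a convergence warning, and they depended on the processing. Saline array 2 had a weight of 1.33 with a filter on low values added and 0.32 with arrays centred on their median. For rxLeptin array 2 these weights were 6.48 and 7.27. Without array weights none of the 12 tested receptor genes was called by limma (4 had an unadjusted *p* under 0.05), and neither was any of the 16269 probe sets (4262 had an unadjusted *p* under 0.05). Neither a receptor gene nor any other probe set was called without saline array 1, without saline array 2, or with the actin gap as a covariate. An exact permutation test of 3 arrays against 3 cannot give a two-sided *p* below 0.1.

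**Figure D1:**
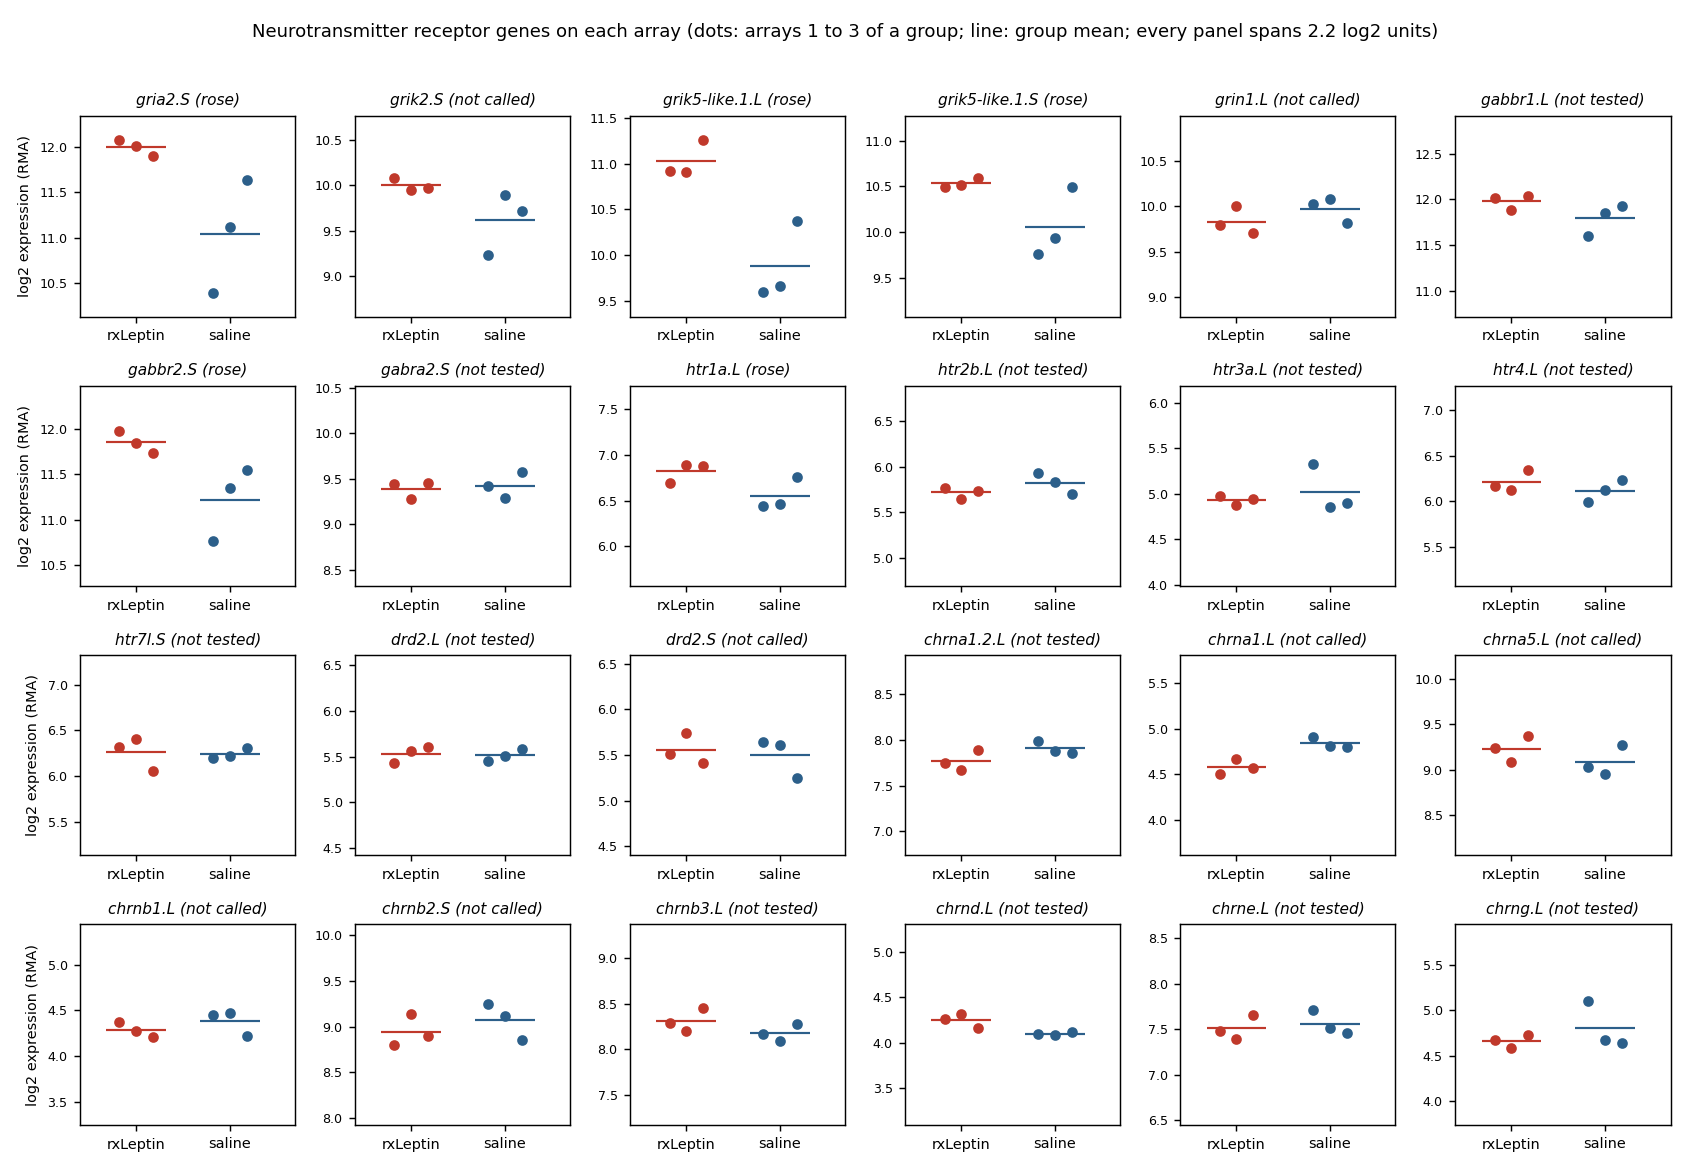
Log2 RMA level of each receptor gene (vertical axis of each panel) on the rxLeptin and saline arrays, with 1 point per array and a bar at the group mean. In *gria2.S*, *grik5-like.1.L* and *gabbr2.S* all 3 rxLeptin arrays sit above all 3 saline arrays, whereas in 17 of 24 genes the groups overlap.

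The ionotropic glutamate receptors held the 3 largest fitted differences. Of 5 genes, all were tested, 3 rose and 0 fell, and 4 had every rxLeptin array above every saline array. Called were thus 60% of the family, against 46.3% of all tested genes. The rxLeptin arrays were all above in 80%, against 11.1% of all genes. With 5 genes, among them both copies of *grik5-like.1*, these shares are a description. The 5 genes cover the AMPA (*gria*), NMDA (*grin*) and kainate (*grik*) types of channel, which share a plan of 4 subunits and differ in agonist and speed.

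*gria2.S* encodes the AMPA receptor subunit whose edited transcript, in mammals, makes the channel impermeable to calcium. It read 12.08, 12.01 and 11.90 on rxLeptin arrays 1, 2 and 3, against 10.39, 11.12 and 11.63 on saline arrays 1, 2 and 3. The rxLeptin arrays lay close together and above all saline arrays, which were spread over more than the distance between the nearest arrays of both groups. The group means were 11.99 ± 0.091 in rxLeptin pools and 11.05 ± 0.62 in saline pools (SD, n = 3 each). The fitted log2 fold change was 0.91 (SE 0.12, 95% interval 0.64 to 1.18, adjusted *p* = 0.000293), or 1.88-fold. It was 0.30 with the actin gap as a covariate (adjusted *p* = 0.929) and 0.63 without saline array 1.

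*grik5-like.1.L* and *grik5-like.1.S* are the L and S copies of a gene annotated as similar to kainate receptor subunit 5, and the annotation table lists kbp among the older names of the L copy. *grik5-like.1.L* had 10.92, 10.91 and 11.26 on rxLeptin arrays and 9.59, 9.66 and 10.38 on saline arrays. Its groups did not overlap, and saline array 3 lay nearest to the rxLeptin arrays. Its fold change of 1.25 on the log2 scale (SE 0.12, 95% interval 0.99 to 1.504, adjusted *p* = 8.47e-05), or 2.37-fold, was the largest among the receptor genes. A second probe set of *grik5-like.1.L* had 9.41, 9.19 and 9.47 on rxLeptin arrays and 8.34, 8.56 and 9.27 on saline arrays. Saline array 3 fell within the rxLeptin values here, and the fold change of this probe set was 0.67 (SE 0.12, adjusted *p* = 0.00149).

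*grik5-like.1.S* had 10.50, 10.51 and 10.59 on rxLeptin arrays, against 9.76, 9.93 and 10.49 on saline arrays. Saline array 3 almost touched the rxLeptin arrays, and the separation rested on saline arrays 1 and 2. The fold change was 0.56 (SE 0.11, 95% interval 0.34 to 0.79, adjusted *p* = 0.00171), or 1.48-fold, and the gene no longer passed the variance filter without saline array 1 or without saline array 2.

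The other 2 glutamate receptor genes were not called. *grik2.S*, a kainate receptor subunit, had 10.08, 9.94 and 9.97 on rxLeptin arrays and 9.24, 9.89 and 9.71 on saline arrays. Its rxLeptin arrays were all higher, with saline array 2 just under the lowest of them, and the fitted fold change was 0.13 (95% interval -0.11 to 0.38, adjusted *p* = 0.324). A second probe set of *grik2.S*, which did not pass the filter, had 6.64, 6.47 and 6.15 on rxLeptin arrays and 6.69, 6.49 and 6.50 on saline arrays, with overlapping groups and a difference of means of -0.14. *grin1.L*, the subunit that every NMDA receptor needs, had 9.79, 9.999 and 9.70 on rxLeptin arrays and 10.02, 10.08 and 9.82 on saline arrays, with a fold change of -0.13 (95% interval -0.35 to 0.099, adjusted *p* = 0.315). The AMPA subunit and the NMDA subunit thus had fitted values on either side of 0, and the difference between them was not tested.

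The response of the L copy of *grik5-like.1* was set against that of the S copy within each array, a test that was run over 1420 L and S pairs of which 15.1% differed. The L probe set minus the S probe set gave 0.42, 0.40 and 0.67 on rxLeptin arrays and -0.16, -0.27 and -0.11 on saline arrays. The change with rxLeptin was 0.66 larger on the log2 scale in the L copy (SE 0.099, adjusted *p* = 0.0234 in limma). This held for 1 L probe set only. With the other probe set of the L copy the difference was 0.093 (adjusted *p* = 0.530, an alternative chosen after seeing the data), and without array weights it was 0.68 (adjusted *p* = 0.185). It was not called without rxLeptin array 2, saline array 1 or saline array 2 either. The other receptor pair, *drd2*, had a difference of -0.074 (SE 0.13, adjusted *p* = 0.691). How far probe sets of 1 copy also bind the other copy was not tested.

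**Figure D2:**
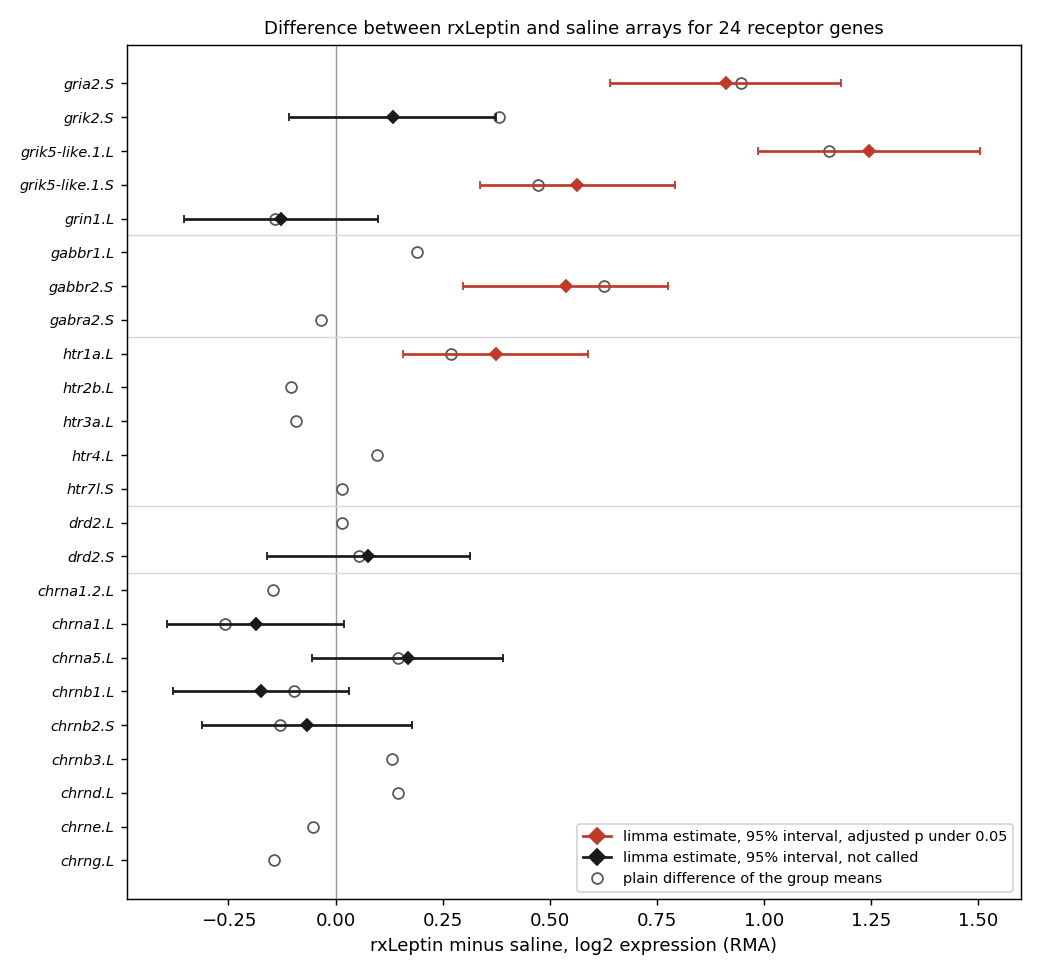
Difference between rxLeptin and saline arrays (log2, horizontal axis) for each of the 24 receptor genes, grouped by family. Open circles give the plain difference of group means for every gene, and diamonds give the fitted fold change with its 95% interval where the gene was tested. The 5 called genes, from 0.37 for *htr1a.L* to 1.25 for *grik5-like.1.L*, are all to the right of 0.

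Of the 3 GABA receptor genes, 1 was tested and it rose. *gabbr2.S* encodes the subunit of the metabotropic GABA receptor that couples to the G protein, while its partner, encoded by *gabbr1*, binds GABA. *gabbr2.S* had 11.98, 11.84 and 11.73 on rxLeptin arrays, against 10.77, 11.35 and 11.55 on saline arrays. All rxLeptin arrays were higher, and saline array 1 lay farthest away. The fold change was 0.54 (SE 0.11, 95% interval 0.30 to 0.78, adjusted *p* = 0.00296), or 1.45-fold, but 0.14 with the actin gap as a covariate (adjusted *p* = 0.951).

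*gabbr1.L* was measured by a pair of probe sets. The one of higher mean, which represents the gene, did not pass the variance filter, with 12.02, 11.89 and 12.03 on rxLeptin arrays and 11.59, 11.86 and 11.92 on saline arrays. Its groups overlapped. The other probe set had 10.53, 10.53 and 10.42 on rxLeptin arrays and 8.81, 9.97 and 10.49 on saline arrays, and it passed the test with a fold change of 0.59 (SE 0.15, adjusted *p* = 0.00892) although saline array 3 lay within the rxLeptin values. *gabra2.S*, a subunit of the ionotropic GABA receptor, had 9.44, 9.28 and 9.46 on rxLeptin arrays and 9.42, 9.29 and 9.57 on saline arrays. It did not pass the filter, and its group means differed by -0.033.

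Of the 5 serotonin receptor genes, 1 was tested and it rose. *htr1a.L* encodes a receptor that lowers cyclic AMP and, in mammals, also acts as the autoreceptor of serotonin neurons. It had 6.69, 6.89 and 6.88 on rxLeptin arrays and 6.44, 6.46 and 6.76 on saline arrays. Saline array 3 was above rxLeptin array 1, so the groups overlapped. The fold change was 0.37 (SE 0.099, 95% interval 0.16 to 0.59, adjusted *p* = 0.0108), or 1.30-fold. Among the 5 called receptor genes this was the call kept under the fewest alternatives, in 7 of 17, and it was lost without any 1 of rxLeptin array 2 and saline arrays 1, 2 and 3.

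The remaining serotonin receptor genes did not pass the filter, and their groups overlapped. *htr2b.L*, which acts through phospholipase C, had 5.77, 5.65 and 5.74 on rxLeptin arrays and 5.93, 5.84 and 5.70 on saline arrays. *htr3a.L*, the only ion channel among the serotonin receptors measured, had 4.98, 4.88 and 4.94 on rxLeptin arrays and 5.32, 4.85 and 4.90 on saline arrays, with saline array 1 alone above the rest. *htr4.L*, which raises cyclic AMP, had 6.17, 6.12 and 6.35 on rxLeptin arrays and 5.99, 6.12 and 6.23 on saline arrays. Its second probe set had 5.01, 5.05 and 4.94 on rxLeptin arrays and 5.03, 5.12 and 4.85 on saline arrays. *htr7l.S*, annotated as similar to another receptor that raises cyclic AMP, had 6.32, 6.40 and 6.06 on rxLeptin arrays and 6.20, 6.22 and 6.31 on saline arrays. The differences of group means in these 4 genes ran between -0.10 and 0.098. 

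Neither dopamine receptor gene was called. Both encode the D2 receptor, which lowers cyclic AMP and through which dopamine restrains prolactin release in mammals. *drd2.L* did not pass the filter and had 5.43, 5.56 and 5.60 on rxLeptin arrays, against 5.45, 5.50 and 5.59 on saline arrays. *drd2.S* had 5.51, 5.74 and 5.42 on rxLeptin arrays and 5.65, 5.61 and 5.25 on saline arrays, with a fold change of 0.077 (95% interval -0.16 to 0.31, adjusted *p* = 0.569). Its second probe set did not pass the filter, with 5.59, 5.61 and 5.53 on rxLeptin arrays and 5.40, 5.48 and 5.54 on saline arrays. The interval of *drd2.S* holds changes of either sign. Of 12 pituitary marker genes measured, 8 were tested and 3 fell, while 23.3% of all tested genes fell. The summed level of the 12 genes was 14.97 to 15.72 in log2 on rxLeptin arrays and 15.63 to 15.81 on saline arrays. These ranges overlapped, and *pomc.L*, *pomc.S*, *gh1.L*, *gh1.S* and *gh2.S* each read lowest on rxLeptin array 3. The part of the pituitary markers in the *drd2* values was not tested.

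None of the 9 nicotinic receptor genes was called, of which 4 were tested. They fall into subunits found in neurons and subunits of the channel at the junction of nerve and skeletal muscle. Of the 3 neuronal subunits, *chrna5.L* had 9.24, 9.09 and 9.37 on rxLeptin arrays and 9.03, 8.95 and 9.27 on saline arrays, with a fold change of 0.17 (95% interval -0.055 to 0.39, adjusted *p* = 0.183). *chrnb2.S*, a partner subunit of most high-affinity nicotinic receptors of the mammalian brain, had 8.79, 9.14 and 8.90 on rxLeptin arrays and 9.25, 9.12 and 8.85 on saline arrays, with a fold change of -0.066 (adjusted *p* = 0.637). *chrnb3.L* did not pass the filter and had 8.29, 8.20 and 8.45 on rxLeptin arrays and 8.17, 8.09 and 8.28 on saline arrays. In all 3 the groups overlapped.

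Of the 6 muscle-type subunit genes, 2 were tested and neither was called. The mean was lower on rxLeptin arrays in 5. Over all genes the median difference of means was also below 0, at -0.033. *chrna1.L*, which carries the main acetylcholine binding site of the muscle receptor, had 4.51, 4.67 and 4.57 on rxLeptin arrays, against 4.91, 4.81 and 4.80 on saline arrays. It was the only receptor gene with every rxLeptin array below every saline array. Its fold change of -0.19 (SE 0.095, 95% interval -0.39 to 0.020, adjusted *p* = 0.117) had the largest size in this family and did not pass. *chrnb1.L* had 4.37, 4.27 and 4.21 on rxLeptin arrays and 4.45, 4.47 and 4.22 on saline arrays, with a fold change of -0.17 (adjusted *p* = 0.140).

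*chrna1.2.L*, *chrnd.L*, *chrne.L* and *chrng.L* did not pass the filter. *chrnd.L*, the delta subunit, had 4.26, 4.31 and 4.16 on rxLeptin arrays and 4.09, 4.08 and 4.12 on saline arrays, the only muscle-type gene with all rxLeptin arrays higher. *chrne.L*, the subunit of the adult mammalian junction, had 7.48, 7.40 and 7.65 on rxLeptin arrays and 7.71, 7.51 and 7.47 on saline arrays. *chrng.L*, its embryonic counterpart, had 4.67, 4.58 and 4.73 on rxLeptin arrays, against 5.10, 4.68 and 4.64 on saline arrays. *chrna1.2.L* had 7.75, 7.67 and 7.88 on rxLeptin arrays and 7.99, 7.88 and 7.86 on saline arrays. The deposited table holds no detection calls, so whether the probe sets near 4 or 5 were above background is not known here.

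Skeletal muscle markers differed in the same samples. Of 10 marker genes measured, 7 were tested and 6 fell, whereas 23.3% of all tested genes fell. Among the 6, *myl1.L* fell by 0.95 and *actc1.L* by 0.71 on the log2 scale. In 1 of the 6, *myh4.L*, the weighted fit gave -0.59 while the plain group mean was higher in rxLeptin pools, at 6.09 ± 0.58, than in saline pools, at 5.97 ± 0.58 (SD, n = 3 each), and the groups overlapped. The summed level of the 10 genes was 10.21 to 10.25 in log2 on rxLeptin arrays and 10.60 to 10.73 on saline arrays. The part of these markers in the values of the muscle-type receptor genes was not tested. In RNA from a whole dissected region, fewer cells of a type and less RNA per cell cannot be told apart.

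Some neuronal markers were also called. Of 16 measured, 7 were tested, 4 rose (*elavl4.L*, *gap43.S*, *map2.S* and *syp.S*) and 0 fell. Among all tested genes, 23.1% rose and 23.3% fell. Over the 16, all rxLeptin arrays were above all saline arrays in 5 and below them in 1, *snap25.S*. Over all genes, these shares were 11.1% above and 16.6% below. *stmn2.L*, *nefl.L*, *nefm.L*, *nefm.S* and *syt1.L* also had lower means on rxLeptin arrays. The summed level of the 16 genes was 16.82 to 16.84 in log2 on rxLeptin arrays, against 16.46, 16.71 and 16.78 on saline arrays 1, 2 and 3. *syp.S*, a synaptic vesicle protein, had the largest fitted change among them at 1.04 (SE 0.15, adjusted *p* = 0.000472), and its saline values of 9.45, 10.33 and 11.19 had the same order over the arrays as those of *gria2.S*. The part of these markers in the receptor values was not tested.

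That order of saline arrays was shared by the called receptor genes. In all 5, saline array 1 was lowest and saline array 3 highest, as in 64.3% of the 1237 genes that rose over the whole array and in 20.5% of all genes. Relative to its mean over rxLeptin arrays, *gria2.S* stood at -1.60, -0.88 and -0.36 on saline arrays 1, 2 and 3, and *gabbr2.S* at -1.08, -0.50 and -0.30. *grik5-like.1.L* stood at -1.44, -1.37 and -0.65, *grik5-like.1.S* at -0.78, -0.60 and -0.043, and *htr1a.L* at -0.38, -0.36 and -0.060. The actin gap had the reverse order, 2.83, 1.61 and 0.77. With only 3 saline arrays this is a description. The fit with the actin gap as a covariate called none of the 16269 probe sets in limma (847 had an unadjusted *p* under 0.05), so the loss of the 5 calls in it was not particular to them. In that fit the fold change was 0.92 for *grik5-like.1.L*, 0.23 for *grik5-like.1.S* and 0.22 for *htr1a.L*.

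**Figure D3:**
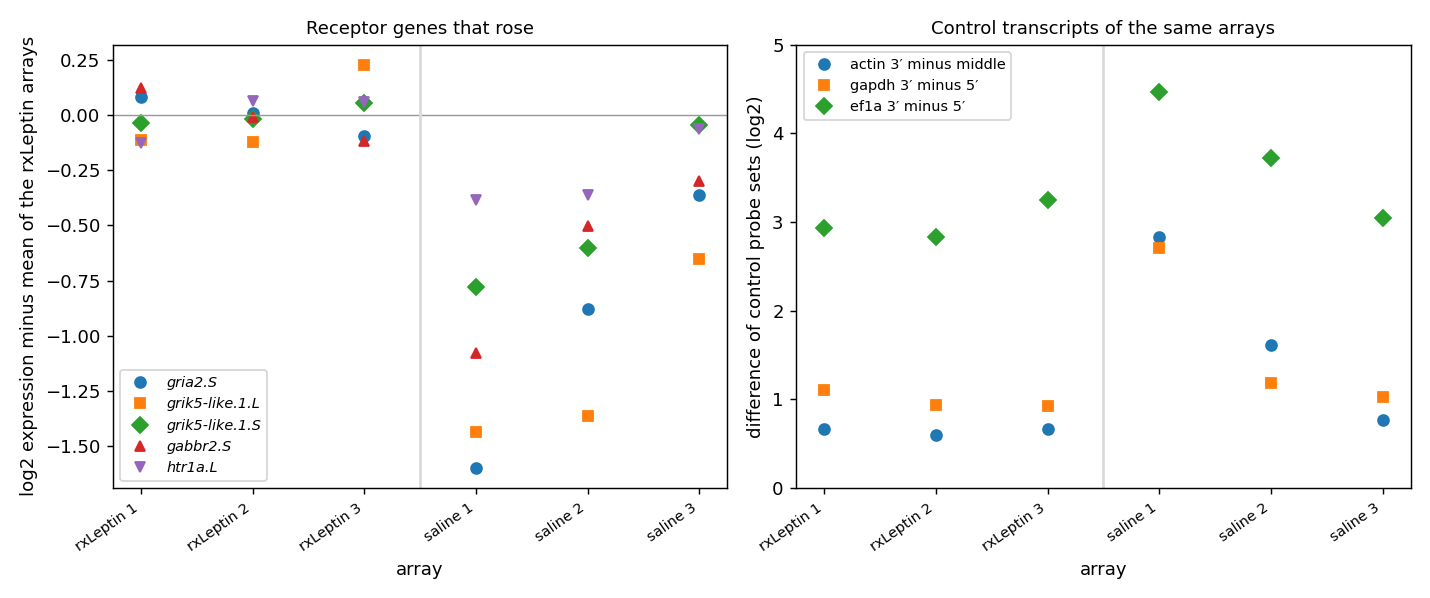
Deviation of each called receptor gene from its own mean over rxLeptin arrays (log2) on each array, beside the gap between 3′ and upstream control probe sets of actin, gapdh and ef1a (log2) on the same arrays. All 5 genes are lowest on saline array 1, where the actin gap is 2.83, and nearest to the rxLeptin arrays on saline array 3, where it is 0.77.

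The other genes of transmission gave calls in both directions, as did all tested genes, of which 23.1% rose and 23.3% fell. Among proteins that anchor, traffic or modify receptors, 25 genes were measured, 11 were tested, 2 rose and 1 fell. *pick1.L*, whose mammalian product binds AMPA receptor subunits and takes part in their internalization, had 6.66, 6.46 and 6.71 on rxLeptin arrays and 6.33, 5.98 and 6.37 on saline arrays, with a fold change of 0.50 (SE 0.11, adjusted *p* = 0.00416). *gphn.L* encodes gephyrin, the scaffold of glycine receptors and of many ionotropic GABA receptors. It had 12.13, 12.00 and 12.00 on rxLeptin arrays and 11.24, 11.68 and 11.84 on saline arrays, with a fold change of 0.37 (SE 0.10, adjusted *p* = 0.0136). In both genes the groups did not overlap.

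*homer3.S* encodes a scaffold that links group I metabotropic glutamate receptors to calcium stores. It had 5.39, 5.27 and 5.53 on rxLeptin arrays and 5.67, 5.82 and 5.43 on saline arrays, and it fell by 0.47 (SE 0.10, adjusted *p* = 0.00422) although the groups overlapped. The plain difference of its group means was smaller, at -0.25. The L copy, *homer3.L*, did not pass the filter. It read 10.12 to 10.33 on rxLeptin arrays and 9.86 to 10.13 on saline arrays, with overlapping groups and a difference of means of 0.17. The fall was thus seen in the S copy only.

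Among enzymes, transporters and opioid peptide precursors of transmission, 23 genes were measured, 10 were tested, 2 rose and 2 fell. *slc6a13.L*, a GABA transporter, had 11.70, 11.64 and 11.51 on rxLeptin arrays, against 10.90, 10.86 and 11.09 on saline arrays. It had the largest change of this list at 0.76 (SE 0.095, adjusted *p* = 0.000184), with rxLeptin arrays all higher. *slc17a7.L*, a vesicular glutamate transporter, had 7.45, 7.45 and 7.49 on rxLeptin arrays and 6.32, 6.97 and 7.21 on saline arrays, with a fold change of 0.51 (SE 0.11, adjusted *p* = 0.00409). Its S copy, *slc17a7.S*, read 11.53 to 11.61 on rxLeptin arrays and 11.20 to 11.44 on saline arrays. That copy was tested and not called, with a fold change of 0.13 (adjusted *p* = 0.240 in limma).

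*gad1.1.L*, an enzyme that makes GABA, had 8.47, 8.46 and 8.53 on rxLeptin arrays and 9.03, 8.77 and 8.61 on saline arrays. Its rxLeptin arrays were all lower, and it fell by 0.30 (SE 0.095, adjusted *p* = 0.0218). *pdyn.L*, the precursor of the dynorphin opioid peptides, had 7.82, 7.94 and 8.03 on rxLeptin arrays and 8.71, 8.25 and 7.69 on saline arrays. It fell by 0.32 (SE 0.12, adjusted *p* = 0.0397) with overlapping groups. Its S copy, *pdyn.S*, did not pass the filter, and the group means of that copy differed by 0.018. The 7 calls of both lists together became 0 in each of 5 separate fits, namely without array weights, with arrays centred on their median, with the actin gap as a covariate, without saline array 1 and without saline array 2. In those 5 fits no probe set of the whole array was called. The calls of both lists numbered 3 without saline array 3, where 9.12% of all tested genes rose and 5.65% fell. By direction, the scaffold list had 5 rises where each gene was represented by its probe set of largest interquartile range. That choice lets more genes pass the filter, and 27.5% of all tested genes rose in it. The list had 1 rise without rxLeptin array 3 or saline array 3, where 25.7% and 9.12% of all tested genes rose. It had 0 to 2 falls when 1 array was left out, with 0 without rxLeptin array 2, saline array 1, 2 or 3. Of all tested genes, 10.9% fell without rxLeptin array 2 and 5.65% without saline array 3. With a filter on low values the scaffold list had 0 rises and 0 falls, while 8.33% of all tested genes rose and 6.73% fell. The falls of the enzyme and transporter list were lost where its rises were not. They became 0 without rxLeptin array 1, rxLeptin array 2 or saline array 3, with weights estimated gene by gene and with a filter on low values, whereas 2 or 3 genes of that list rose in those fits. Of all tested genes, 5.65% to 16.2% fell and 8.33% to 21.2% rose in the same fits.

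**Figure D4:**
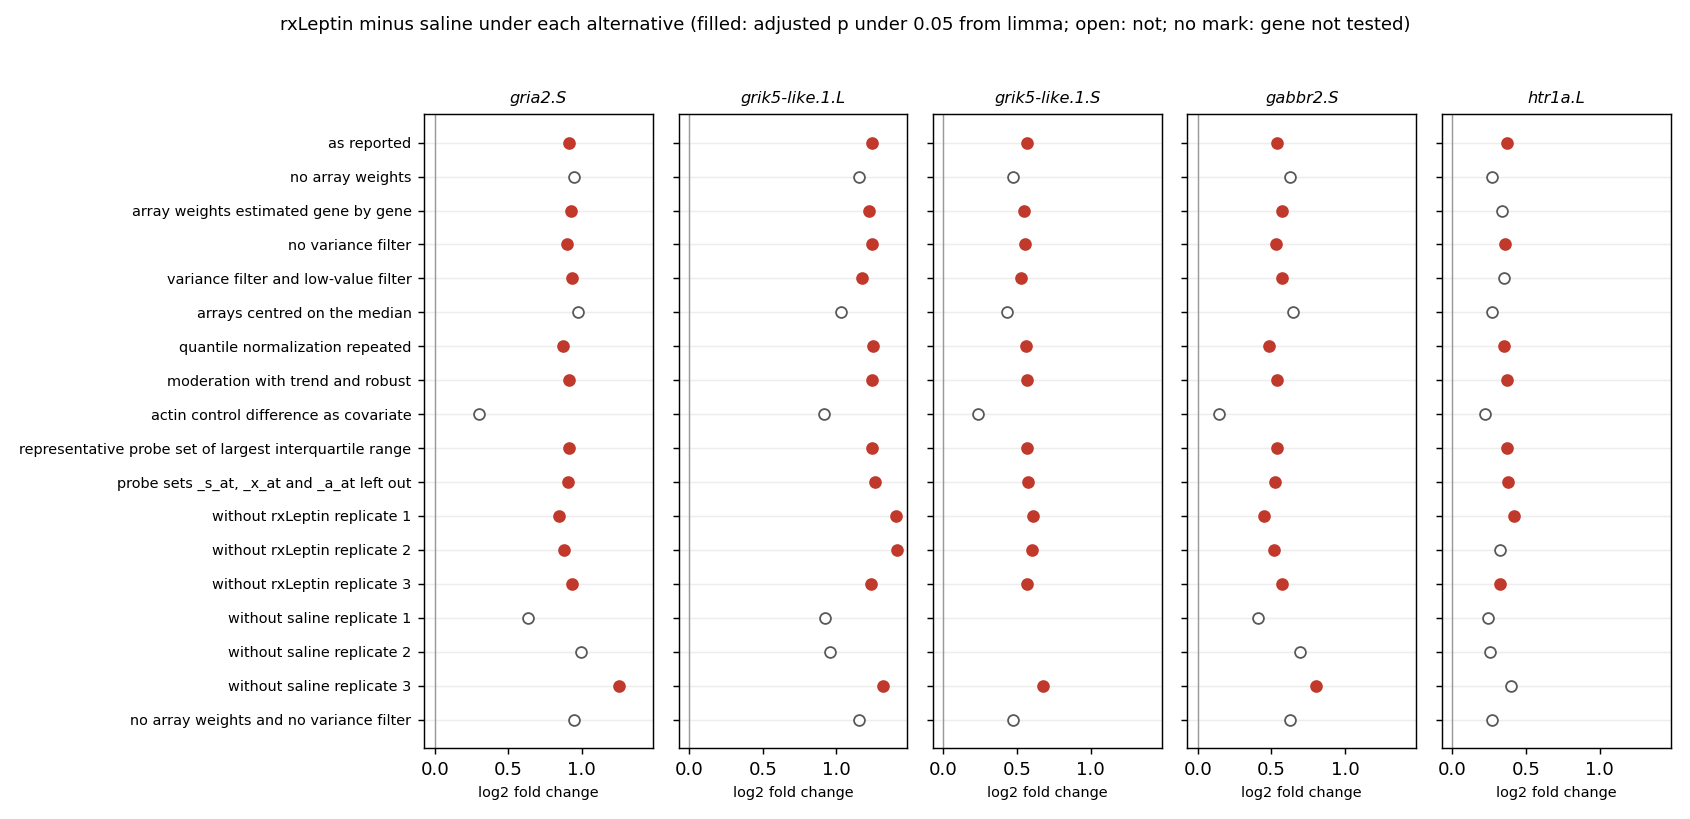
Fitted log2 fold change (horizontal axis) of the 5 called receptor genes under the reported fit and each alternative, with filled points where the adjusted *p* was under 0.05. The fold changes stay above 0 throughout, between 0.30 and 1.26 for *gria2.S*, and the calls are lost in 6 of 17 alternatives for *gria2.S*. Except for *htr1a.L*, the groups of these genes do not overlap, so leaving out or reweighting arrays could not change the sign.

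The direction of the 5 called genes was the same under every one of the 17 alternatives in which they were tested. For *gria2.S*, *grik5-like.1.L*, *grik5-like.1.S* and *gabbr2.S*, every rxLeptin array was above every saline array. Leaving out or reweighting arrays, or changing the filter or the moderation, could therefore not change the sign of these genes. Fitted values ran between 0.92 and 1.41 for *grik5-like.1.L*, 0.14 and 0.80 for *gabbr2.S*, and 0.22 and 0.42 for *htr1a.L*. *gria2.S*, *grik5-like.1.L* and *gabbr2.S* were called in 11 of 17 alternatives. *grik5-like.1.S*, tested in 15, was called in 11 with values between 0.23 and 0.67. Among the 17, the choice of probe sets by largest interquartile range kept the same probe sets and fit for these 5 genes. It could therefore not lose their calls. No receptor gene fell by the test under any of the 17 alternatives. Where none of the 5 genes was called, no probe set of the whole array was called, so no fall could appear. In the other alternatives 5.65% to 30.3% of all tested genes fell.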

How the data were processed

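The authors deposited log2 expression values made with RMA in the affy package, and the submitters' processing notes give the tools as RMA, affy and limma, with no version. Values of all 6 arrays were used as deposited (32635 probe sets), and no genome build is given in the sources used here, so no coordinates are printed. Depth does not apply to arrays, and the number of arrays limits the precision.

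From these values, 96 control probe sets and those with an interquartile range at or under the median were removed. limma 3.58.1 (lmFit, eBayes, default array weights, whose estimation gave a convergence warning) in R 4.3.3 tested rxLeptin against saline, and each adjusted *p* comes from this fit. The procedure was tested on simulated data. These had equal noise on every array, so they did not try the array weights on arrays as unequal as the real ones. Symbols came from the array annotation. All 29 receptor probe sets matched by gene ID a table of Xenopus_laevis_v10.1, used for names only. Named with full values were called members, the member of largest change in a family without a call, pairs whose copies differed, and up to 4 called genes of each other list. Other members are given by their array values. Cell type markers were summed on the linear scale. Pools were numbered in accession order, which pairs nothing, and nothing beyond the pooling of brains says how independent the pools were. The members and lists were chosen with earlier results of these data known. Plots used Python 3.11.15 with matplotlib 3.10.9.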

Additional observations from a re-analysis of the deposited data

How the results depend on the processing

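The number of receptor genes that rose was 5. It was 4 with a filter on low values added, where *htr1a.L* was not called (adjusted *p* = 0.0819 in limma) and 8.33% of all tested genes rose. It was 0 without array weights, with arrays centred on their median, with the actin gap as a covariate, and without both weights and variance filter, the last chosen after seeing the data. Leaving out 1 array gave 0 to 5, with 0 without saline array 1 and without saline array 2. In each fit where the count was 0, no probe set of the whole array was called. The loss was thus not particular to the receptors. The count that fell was 0 throughout. In the alternatives that called any probe set, 5.65% to 30.3% of all tested genes fell.

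The median fold change of the tested receptor genes, 0.15, was 0.052 without the variance filter, 0.28 with a filter on low values added, 0.036 without weights and filter, and 0.013 to 0.24 with 1 array left out. The count of L and S pairs that differed was 1. It was 0 without array weights, 0 with the other probe set of *grik5-like.1.L*, and 0 to 1 with 1 array left out, being 0 without rxLeptin array 2, saline array 1 or saline array 2. The 7 calls among scaffold, synthesis and transport genes became 0 without array weights, 2 with the low-value filter, 0 with centred arrays, 0 with the actin covariate and 0 without weights and filter. They were 0 to 8 with 1 array left out, with 0 without saline array 1 or 2 and 3 without saline array 3. Calls over the whole array dropped in the same fits. Of all tested genes, 8.33% rose and 6.73% fell with the low-value filter, and 9.12% rose and 5.65% fell without saline array 3. No probe set was called in the fits with 0.

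Among the named receptor genes and pairs followed over these fits, the sign changed in uncalled values only. *drd2.S* was -0.021 without rxLeptin array 1, and the L minus S difference of *drd2* was 0.081 without rxLeptin array 1, 0.13 without rxLeptin array 2 and 0.026 without saline array 3 (-0.24 to 0.13 over all arrays left out in turn). Outside the receptors, the muscle marker *myh4.L* was called at -0.59, while its plain difference of group means was 0.12. Choosing members by updated symbols or leaving out adrenergic receptor kinases changed no member. No paired analysis was possible because the labels give the pools no shared replicate numbers. The causes of these shifts were not tested.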
